A study of Mus musculus with 6 samples.

Results

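The genes described here are the mouse major histocompatibility complex (MHC) genes and their partners in antigen presentation, read in tibialis anterior muscle. They were taken by symbol: every gene whose annotated symbol on the array starts with H2- (39 genes) and 12 others named one by one, B2m, Tap1, Tap2, Tapbp, Tapbpl, Erap1, Nlrc5, Cd74, Ciita, Cd80, Cd86 and Cd1d1. That gave 51 of the 19057 genes with 1 annotated symbol and 92 of the array's 45281 probes. Of the 51 genes, 31 had a probe above background on at least 3 of the 6 arrays and could be tested, 18 were not above background on any array, and 2 were above it on 1 or 2 arrays.

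MHC class I molecules sit on nearly all nucleated cells and show peptides from inside the cell to cytotoxic T cells. Each pairs a heavy chain with β2-microglobulin, and its peptides are cut by the proteasome, pumped into the endoplasmic reticulum by the TAP transporter and loaded with the help of tapasin. Class Ib genes are related to the classical class I genes and are mostly less variable between strains, with more specialised roles. Class II molecules are made mainly by macrophages, dendritic cells and B cells. They carry peptides taken up from outside to helper T cells, are guided by the invariant chain Cd74, and are loaded with the help of the DM molecule. Healthy muscle fibres are known for low class I and little or no class II expression, and class I rises on fibres in inflammatory muscle disease. Interferon-γ induces both classes, in part through the transactivators Nlrc5 for class I and Ciita for class II.

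The muscles came from 3-month-old male mice of 2 genotypes, wild type and PGC1b transgenic, with 3 arrays of each. The transgene, for the transcriptional coactivator PGC-1β, is the only difference named. The sources used here give neither its promoter and the cells in which it is active, nor the strain, nor whether each array is a separate animal. A p-value here therefore covers the variation from array to array, part or all of which may be technical. The platform was Illumina's Mouse WG-6 v2, read in 1 colour, and 15338 to 15691 probes were above background (detection p under 0.05) on the wild-type arrays and 17525 to 17604 on the others. The number of arrays limits the precision of every value. The gene named by the genotype goes against its label: Ppargc1b (1 probe, ILMN_2771709) was 9.23 ± 0.33 in wild type and 7.91 ± 0.32 in the other group (log2 signal, SD, n = 3), a change of -1.32 (limma adjusted p = 0.000734, exact two-sided permutation p = 0.1, the smallest possible here). What part of the mRNA or transgene this probe reads is not known here, so the direction of every difference rests on the labels, and the second group is called labelled transgenic. Skeletal muscle markers (Acta1, Ckm and 8 others) were all above background, and their summed normalized signal was 200464 to 204541 in wild type and 149552 to 153528 in the arrays labelled transgenic. That list had 1 rise (Des) and 5 falls, with a median change of -0.23. The falls were uneven: Myh4 (-3.91), Actn3 (-3.61) and Pygm (-2.46) changed far more than Tnnt3 (-0.33) and Ckm (-0.29). The other 4, Acta1 (-0.04), Mylpf (-0.04), Tnnc2 (-0.10) and Mb (-0.16), were not called. The lower sum is therefore not shared evenly by the markers. Between the groups 5613 genes of 9978 with a test (56.3%) had an adjusted p under 0.05.

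The promoters of 6 members that rose are printed first, to show the letters of these regulatory regions in each class. RefSeq gave a promoter window (250 bases before to 50 after the transcript start, build GRCm38.p6) for 35 of the 51 genes. Capitals mark matches to 4 motifs, searched on both strands. The first are the CCAAT box (CCAAT) and the core of the X box, bound by RFX factors in class II promoters (GCAAC). The others are 2 forms of the core of the interferon-stimulated response element (ISRE). Both have a gap of 2 bases, where N is any base: a shorter form, GAANNGAAA, and a longer form, GAAANNGAAA. H2-Aa and H2-Eb1 stand for class II, H2-K1 and H2-D1 for classical class I, H2-T23 for class Ib, and B2m for the light chain.
H2-Aa (chr17:34287774-34288073, - strand): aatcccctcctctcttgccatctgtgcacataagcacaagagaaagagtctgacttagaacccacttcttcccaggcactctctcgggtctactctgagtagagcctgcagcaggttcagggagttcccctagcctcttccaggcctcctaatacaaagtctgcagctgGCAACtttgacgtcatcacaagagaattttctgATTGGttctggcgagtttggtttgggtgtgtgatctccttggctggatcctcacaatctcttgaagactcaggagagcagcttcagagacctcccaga
H2-Eb1 (chr17:34305617-34305916, + strand): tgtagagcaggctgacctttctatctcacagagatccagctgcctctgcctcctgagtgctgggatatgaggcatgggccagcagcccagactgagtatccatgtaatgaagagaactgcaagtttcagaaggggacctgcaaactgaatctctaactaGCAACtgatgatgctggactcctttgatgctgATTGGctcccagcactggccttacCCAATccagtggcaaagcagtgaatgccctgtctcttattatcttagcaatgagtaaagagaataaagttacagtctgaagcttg
H2-K1 (chr17:34000298-34000597, - strand): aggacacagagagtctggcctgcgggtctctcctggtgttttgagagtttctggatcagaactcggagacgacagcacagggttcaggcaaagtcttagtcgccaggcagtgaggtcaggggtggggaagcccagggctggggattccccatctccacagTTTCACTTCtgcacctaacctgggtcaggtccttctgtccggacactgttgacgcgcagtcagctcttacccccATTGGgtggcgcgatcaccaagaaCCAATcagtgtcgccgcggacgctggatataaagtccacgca
H2-D1 (chr17:35262844-35263143, + strand): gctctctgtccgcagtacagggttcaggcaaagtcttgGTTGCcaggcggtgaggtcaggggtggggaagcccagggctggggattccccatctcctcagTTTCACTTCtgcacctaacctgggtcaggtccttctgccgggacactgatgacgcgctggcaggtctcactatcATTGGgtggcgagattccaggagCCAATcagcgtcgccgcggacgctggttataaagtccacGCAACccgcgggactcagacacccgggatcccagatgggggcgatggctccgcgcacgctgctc
H2-T23 (chr17:36032652-36032951, - strand): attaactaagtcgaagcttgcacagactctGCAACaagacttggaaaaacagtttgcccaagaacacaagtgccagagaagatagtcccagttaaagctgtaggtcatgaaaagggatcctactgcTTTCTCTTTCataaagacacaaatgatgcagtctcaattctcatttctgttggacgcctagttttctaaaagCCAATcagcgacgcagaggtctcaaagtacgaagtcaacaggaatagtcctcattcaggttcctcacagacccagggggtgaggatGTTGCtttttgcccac
B2m (chr2:122147437-122147736, + strand): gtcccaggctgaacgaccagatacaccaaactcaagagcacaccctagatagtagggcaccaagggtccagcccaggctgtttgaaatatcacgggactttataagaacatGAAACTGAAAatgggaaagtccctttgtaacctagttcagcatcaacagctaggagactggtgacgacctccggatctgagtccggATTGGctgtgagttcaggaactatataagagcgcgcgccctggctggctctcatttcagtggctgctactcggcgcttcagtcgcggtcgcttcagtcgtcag

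The CCAAT box was in 84.2% of the 38 member windows, against 37.4% of all 32851 windows. It was in 17 of 18 windows of members that rose and also in 11 of 15 windows of members above background on no array. In H2-Aa and H2-Eb1 it began 48 and 59 bases before the start, with an X box core at 81 and 91 bases before the start. That core stood in 6 of 9 class II windows and in 5 of 23 class I and Ib windows, against 35.2% of all windows. H2-K1 and H2-D1 held the shorter form of the ISRE core, and H2-T23 and B2m the longer form. The shorter form was in 8 of 23 class I and Ib windows and 0 of 9 class II windows (7.52% of all windows), and the longer form in 2 and 0 (3.44% of all windows). In these counts a gene with more than 1 start has more than 1 window. The motif letters were chosen with the promoters in view, and many member windows belong to closely related genes. These shares are therefore no test of enrichment. A match is a description of the letters in the window only.

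The study's question, as its design and title give it, is how expression in muscle with added PGC-1β differs from wild type. Among the 31 members tested, 26 were higher in the arrays labelled transgenic and 1, H2-Q1, was lower, by limma with Benjamini-Hochberg adjustment over all 9978 genes tested and a threshold of 0.05. In the same comparison 28.1% of all genes tested were higher and 28.2% lower. "Rose" and "fell" below refer to this test, a level is the log2 of the signal once background and array differences were corrected, and a change is labelled transgenic minus wild type. In bulk muscle, more cells of a type and more RNA per cell cannot be told apart. The rises ranged from 1.58-fold for Tapbp to 6.46-fold for H2-Ab1. The median change was 1.64 over the members tested, beside -0.03 over all genes tested. A member that is above background in only 1 group passes the filter through that group, so these counts do not stand for all members. With no filter on dim probes all 51 members entered the test: 26 rose and 1 fell, with a median change of 0.66, beside 14.6% and 14.4% of all genes and a median of -0.02. Of 22 members above background on all 6 arrays, 20 rose, beside 25.1% of all such genes. All 26 genes that rose had groups that did not overlap, as did H2-Q1 in the other direction, and 31.5% of all genes tested lay higher and 32.3% lower without overlap.

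**Figure D1:**
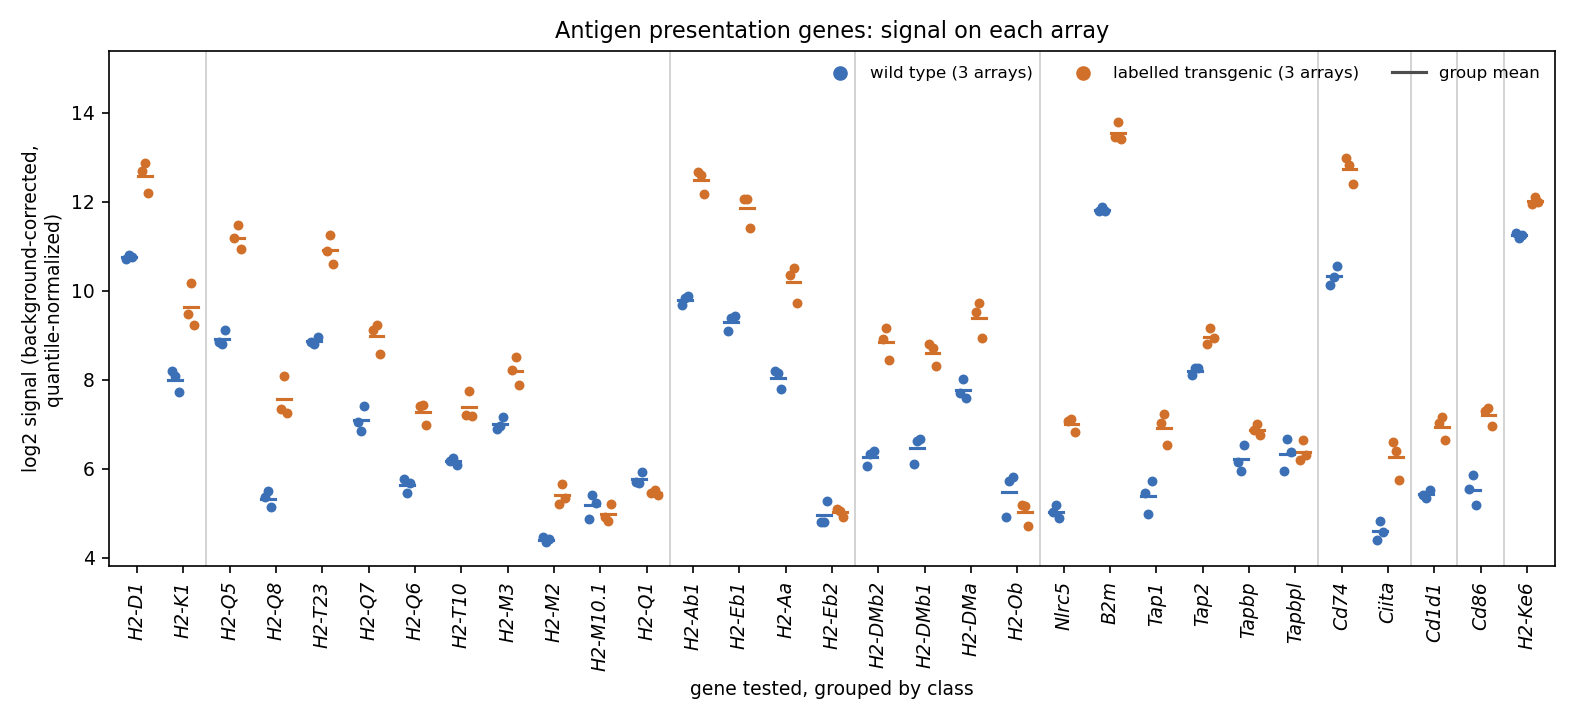
Log2 signal (y axis) of the probe that stands for each of the 31 genes tested (x axis, grouped by class), with 1 point per array and a bar for each group's mean of 3 arrays. The orange points lie above all blue points for 26 genes, and H2-Eb2, H2-M10.1, H2-Ob and Tapbpl overlap between the groups.

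The classical class I genes H2-K1 and H2-D1, which present peptides to cytotoxic T cells, both rose. H2-D1 (brightest probe ILMN_2462745) had unnormalized signals of 1738.2, 1776.1 and 1674.4 in wild type and 6956.9, 7850.8 and 4571.4 in the arrays labelled transgenic. All 3 of the latter were above all wild-type values, with replicate 3 the lowest of them. The log2 signal went from 10.76 ± 0.05 to 12.59 ± 0.34 (SD, n = 3), a 3.55-fold rise (change 1.83, SE 0.17, limma adjusted p = 3.82e-05). H2-K1 (ILMN_2588139) read 323.8, 294.7 and 234.1 in wild type and 880.8, 1304.4 and 637.5 in the other group. Again the groups did not overlap, and the rise was 3.11-fold (change 1.64, SE 0.24, adjusted p = 0.000476). Of the 7 probes for these genes 5 were kept, and all 5 rose, with changes of 1.42 to 1.83. One further probe of each gene was at background: the fourth H2-D1 probe was above it on 0 arrays and the third H2-K1 probe on 1. Classical and class Ib heavy chains are close in sequence, and probe sequences were not used here, so a probe annotated to one gene may also read transcripts of another.

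Class Ib was divided by subfamily. Of its 26 genes 10 could be tested, of which 8 rose and H2-Q1 fell, and 15 were not above background on any array. The Q genes on the array encode Qa molecules and relatives, and 5 of 7 were tested. H2-Q5, which RefSeq annotates as a transcribed pseudogene, rose with a change close to that of H2-Q8, and which of these was larger differed between alternatives. Its bright probe read 494.7, 461.4 and 560.3 in wild type and 2590.6, 3031.4 and 1911.4 in the arrays labelled transgenic. Every value of the second group was above the highest wild-type value, and the rise was 4.82-fold (change 2.27, SE 0.16, adjusted p = 9.64e-06). The other 2 H2-Q5 probes were not above background on any array, so the bright probe stands alone for the gene. H2-Q8 rose 4.72-fold with its probe of higher mean signal, which was above background on 2 wild-type arrays, and had a change of 1.66 with the other. H2-Q7 rose 3.69-fold and H2-Q6 3.12-fold. H2-Q6, H2-Q7 and H2-Q8 are near-identical copies, so their separate values are uncertain.

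H2-Q1 was the 1 member called lower, and the call was narrow. Its unnormalized signals, 99.5, 96.5 and 104.5 in wild type and 106.6, 108.5 and 94.6 in the other group, overlapped. After normalization the groups lay apart, with a change of -0.30 (SE 0.11, limma adjusted p = 0.0474). It fell short of the threshold in 13 of 17 alternatives, among them the leave-one-out fits without each of the 6 arrays, and turned to 0.044 with arrays scaled to the median of all probes. In the fit over probes, in place of genes, the same probe did not pass.

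Of the T genes and H2-Bl, 2 of 7 were tested and both rose. H2-T23 encodes Qa-1, which shows leader peptides of other class I molecules to receptors on natural killer cells. Its brightest probe (ILMN_2777474) read 494.5, 462.1 and 501.5 in wild type and 2167.1, 2575.5 and 1527.7 in the arrays labelled transgenic, a 4.13-fold rise (change 2.05, SE 0.16, adjusted p = 1.78e-05). The groups were apart on each of its 3 probes, with changes of 1.83 to 2.10. H2-T10, a relative of the γδ T cell ligand H2-T22 and annotated as a transcribed pseudogene in RefSeq, rose 2.33-fold, and a second probe had a change of 1.16. Its remaining probe was above background on no wild-type array and was at least 1.49-fold higher, in the sense explained for H2-M2 in the next paragraph. H2-T22 itself had 1 probe, which read 58 to 63.8 in wild type and 58.1 to 63.4 in the other group and was above background on no array.

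The M genes were mostly at background. H2-M3, which presents peptides that begin with formyl-methionine, as bacterial and mitochondrial peptides do, read 160.1, 158.2 and 175.4 in wild type and 410.9, 462.5 and 283.5 in the arrays labelled transgenic. The groups did not overlap, and the rise was 2.29-fold (change 1.19, SE 0.17, adjusted p = 0.000411). H2-M2 was above background on all 3 arrays labelled transgenic and on no wild-type array, and was at least 1.12-fold higher (adjusted p = 0.000317). "At least" gives the brighter group's mean over the dim group's mean with each dim value set to the higher of its own and the array's lowest signal above background. The adjusted p printed beside such a bound, here and below, belongs to the fitted change and not to the bound. That fitted change uses wild-type signals that were not above background. The M10 genes, known in mouse for expression in the vomeronasal organ, had 12 probes for 6 genes, of which 10 were above background on no array. H2-M10.1, the 1 tested, had a change of -0.19 (adjusted p = 0.349).

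**Figure D2:**
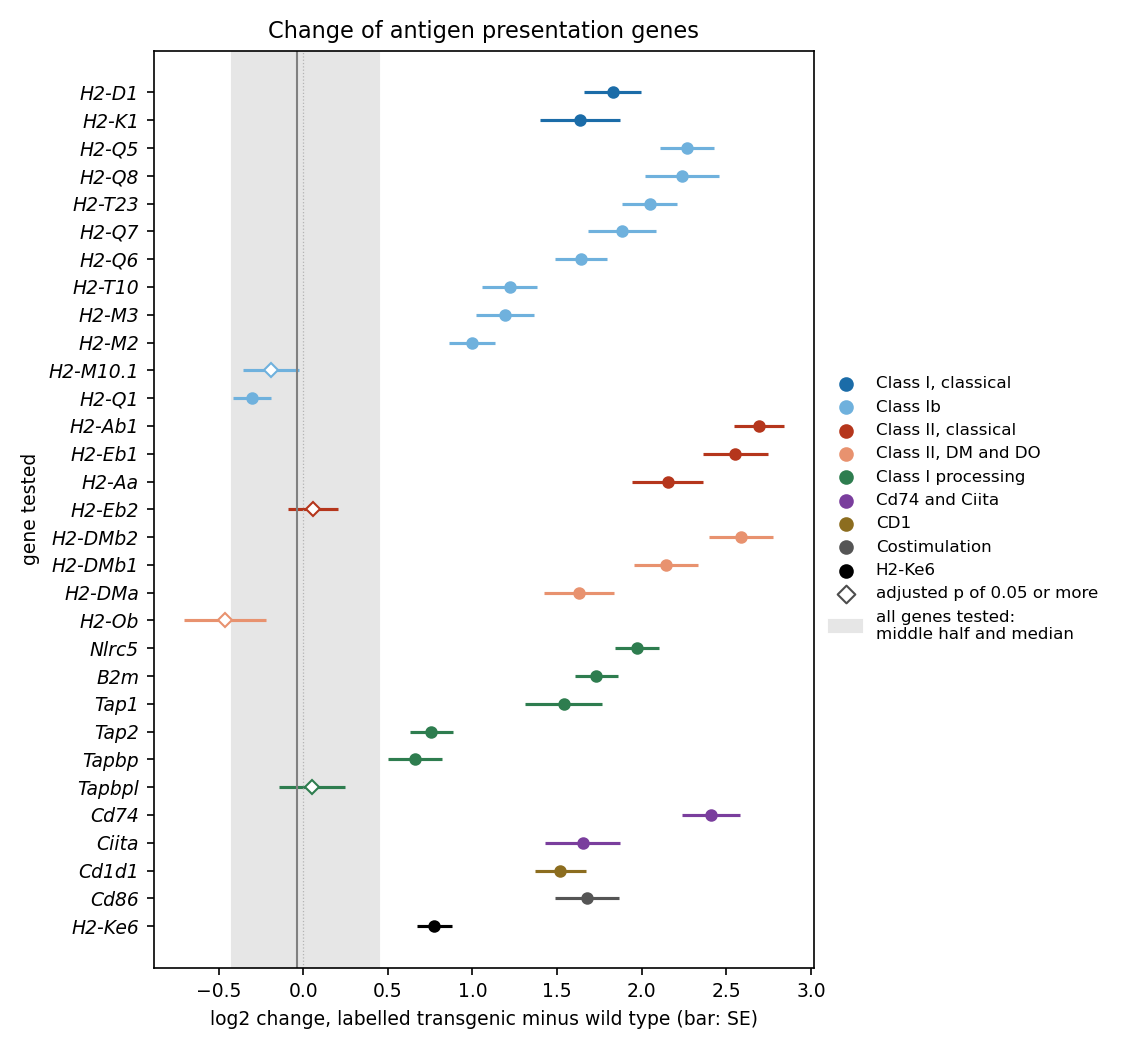
Log2 change (x axis, point, with its SE as a bar) of each of the 31 genes tested (y axis), coloured by class, with white diamonds for adjusted p-values of 0.05 or more. The grey band spans the quartiles (-0.42 to 0.45) and the line the median (-0.03) of all 9978 genes tested. The class II genes H2-Ab1, H2-DMb2 and H2-Eb1 lie farthest right, at 2.69, 2.58 and 2.55. Ciita, H2-M2 and Nlrc5, above background on no wild-type array, are drawn at their fitted change, which is above their bound.

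Class II genes rose as well. Of the 5 classical class II genes, which encode the peptide-binding α and β chains, H2-Aa, H2-Ab1 and H2-Eb1 rose, H2-Eb2 was tested and not called, and H2-Ea was at background. H2-Ab1, the β chain of the A molecule, had unnormalized signals of 840.9, 901.9 and 914.4 in wild type and 6871.8, 6571.6 and 4503.3 in the arrays labelled transgenic (ILMN_1226525). Those groups are far apart, and replicate 3 was again the lowest of the second. The log2 signal went from 9.80 ± 0.11 to 12.49 ± 0.27 (SD, n = 3), a 6.46-fold rise (SE of the log2 change 0.15, adjusted p = 2.87e-06). Its 3 probes gave changes of 2.67 to 2.83. H2-Aa, the α chain of the same molecule, read 324.4, 306.2 and 245.8 against 1538.8, 1596.4 and 870.9, and rose 4.45-fold (change 2.15, SE 0.21, adjusted p = 5.16e-05). H2-Eb1, the β chain of the E molecule, read 576.2, 673.1 and 680.1 against 4719.4, 4560.8 and 2690.8, and rose 5.87-fold (change 2.55, SE 0.19, adjusted p = 1.37e-05). In neither did the groups overlap. The gene of its α-chain partner, H2-Ea, is a transcribed pseudogene in the RefSeq C57BL/6J annotation, and its 1 probe read 62 to 72.3 in wild type and 62.7 to 77.9 in the other group, above background on no array. H2-Eb2, whose 1 kept probe was above background on 1 wild-type array and 2 others, had a change of 0.06 (adjusted p = 0.767).

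The non-classical class II genes encode the chains of DM and DO. All 3 tested chains of DM, which exchanges the invariant-chain fragment for peptide, rose: H2-DMb2 by 2.58 on the log2 scale (adjusted p = 1.15e-05), H2-DMb1 by 2.14 (adjusted p = 3.02e-05) and H2-DMa by 1.63 (adjusted p = 0.000232). H2-DMb2 read 111.9, 120.2 and 125.6 in wild type and 615.3, 685.1 and 393 in the arrays labelled transgenic. Its groups did not overlap, nor did those of the other DM genes, and a second H2-DMb2 probe was above background on 1 array. The DM β-chain genes H2-DMb1 and H2-DMb2 are close copies, so their split is uncertain. Neither chain of DO, an inhibitor of DM known mainly from B cells, was called. H2-Oa had 2 probes, above background on no array, and H2-Ob read 80.4, 98.1 and 101.7 against 96.3, 94.3 and 73.7, with overlapping groups and a change of -0.46 (adjusted p = 0.135). Without wild-type replicate 1 that change was -0.75 and passed the threshold, as lower (adjusted p = 0.0083).

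Cd74 and Ciita, the class II partners, rose with the class II genes. Cd74, the invariant chain that occupies the class II groove until the endosome, read 1160.6, 1249.9 and 1457.7 in wild type and 8556.1, 7611.4 and 5189.9 in the arrays labelled transgenic (ILMN_3089584). The lowest value of the second group was above the highest of the first by a wide margin. The rise was 5.31-fold (change 2.41, SE 0.17, adjusted p = 1.03e-05), and the 3 Cd74 probes gave changes of 2.41 to 2.52. Ciita, the transactivator on which class II transcription depends, was above background on no wild-type array and on all 3 others. It read 61.1, 77.9 and 70.9 against 175.8, 155.4 and 106.9, and was at least 2.02-fold higher (adjusted p = 3e-04). A second Ciita probe was above background on no array.

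In the class I loading pathway 5 of 7 genes rose, 1 was not called and 1 was at background. B2m, the light chain of every class I molecule, read 3555.4, 3701.9 and 3392.5 in wild type and 11469, 14236.6 and 10245.9 in the arrays labelled transgenic (ILMN_2739999). The spread inside each group was small beside the gap between them, and the rise was 3.32-fold (change 1.73, SE 0.13, adjusted p = 1.18e-05). A second bright probe gave 1.69, and another was above background on no array. Nlrc5, the class I transactivator, read 83.1, 85.5 and 80 against 220.9, 220.3 and 166.5. It was above background on no wild-type array and was at least 3.41-fold higher (adjusted p = 6.80e-06). Both transporter subunit genes rose, Tap1 by 1.54 (SE 0.23, adjusted p = 0.000504) and Tap2 by 0.76 (SE 0.13, adjusted p = 0.00102). The difference between them was not tested, and without background correction the changes were 0.88 and 0.66. Tap1 was above background on 2 wild-type arrays, where it read 92.9, 81.5 and 98.8 against 215.8, 230.1 and 145.3. Tap2 read 308, 326.2 and 323.6 against 574.9, 677.2 and 531, also without overlap.

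Tapbp, which encodes tapasin, rose by 1.58-fold on its brighter probe, but its 2 probes differed in direction. The first read 115.5, 105 and 132.1 in wild type and 198.8, 205.9 and 160.7 in the arrays labelled transgenic (change 0.66, SE 0.16, adjusted p = 0.0076). The second read 132.4, 111.8 and 113.2 against 129.5, 137.8 and 113.4, overlapped, and had a change of -0.27 (adjusted p = 0.134 over probes). With the mean of its probes Tapbp no longer passed (change 0.20, adjusted p = 0.207). Tapbpl, the tapasin-related peptide editor, had a change of 0.05 (SE 0.20, adjusted p = 0.837) on the 1 of its 3 probes that was kept. Erap1, the aminopeptidase that trims class I peptides, had 3 probes, and none was above background on any array.

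Cd1d1, which presents lipids to natural killer T cells, rose 2.87-fold, from signals of 91.9, 88.7 and 94 to 216.3, 223.6 and 152.8 (change 1.52, SE 0.15, adjusted p = 5.43e-05). No value of one group reached the other. Of the costimulatory ligands, which give T cells a second signal, Cd86 rose 3.20-fold (adjusted p = 0.000112) and Cd80 was not tested. Cd86 read 95.1, 102.5 and 86.2 against 245.5, 247.2 and 177.3, and was above background on 2 wild-type arrays. A second probe, above background on 1 wild-type array, had a change of 1.54. A further Cd86 probe was above background on no wild-type array and was at least 1.23-fold higher. One Cd80 probe was above background on no array and the other on 2 arrays labelled transgenic, where it read 97.6, 76.1 and 91.1 beside 81.6, 72 and 70.6 in wild type. H2-Ke6 carries the H2- prefix for its position only and encodes a hydroxysteroid dehydrogenase. It read 2602.7, 2289.3 and 2352.1 in wild type and 4331.5, 4629.1 and 3984.6 in the arrays labelled transgenic, a 1.71-fold rise (change 0.77, SE 0.10, adjusted p = 0.000326) with no overlap.

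Compared by class, most of the genes tested rose in each. The median change of those tested was 1.73 in classical class I (2 of 2 rose), 1.43 in class Ib (8 of 10 rose), and 2.15 in class II (6 of 8 rose). Over all their genes with no filter, the medians were 1.73, 0.07 and 1.89, since class Ib holds many genes at background. Among genes above background on all 6 arrays the medians were 1.73 over 2 genes, 1.64 over 7 and 2.35 over 6, beside -0.09 for all such genes. The difference between classes was not tested, and the ranges overlap: class Ib reached 2.27 with H2-Q5, above H2-Aa at 2.15 and H2-DMa at 1.63. The class I loading genes had a median of 1.15, the same with Nlrc5 at its bound.

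**Figure D3:**
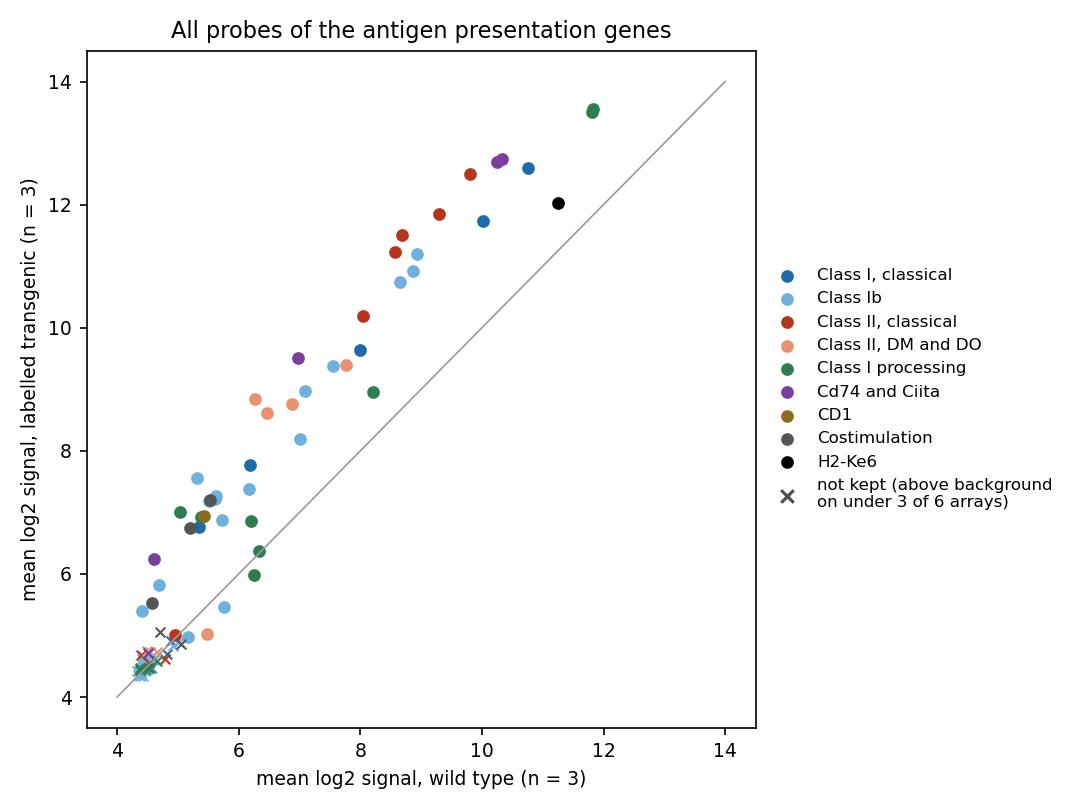
Mean log2 signal of each of the 92 member probes in wild type (x axis) and in the arrays labelled transgenic (y axis), n = 3 each, coloured by class, with crosses for the 43 probes not kept and a line of equal signal. The kept probes lie mostly above the line, and the crosses crowd at its lower end.

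Probe by probe, 49 of the 92 were kept, and 43 of these were higher and 0 lower in the fit over all 17166 kept probes, beside 25.5% higher and 27.9% lower of all kept probes. The 6 kept probes without a call were those of H2-Eb2, H2-M10.1, H2-Ob, H2-Q1 and Tapbpl and the second probe of Tapbp. Another 38 probes were above background on no array. They included every probe of 18 genes: H2-Bl, H2-Ea, H2-M1, H2-M10.2, H2-M10.4, H2-M10.5, H2-M10.6, H2-M11, H2-M5, H2-M9, H2-Oa, H2-Q10, H2-Q2, H2-T18, H2-T22, H2-T24, H2-T3 and Erap1. H2-M10.3 was above background on 1 array, with 1 of its 4 probes. For these genes the arrays give only that the signal was not above background.

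The arrays labelled transgenic were not equally high. Replicate 3 was the lowest of the 3 for 23 of the 26 members that rose, while it was lowest for 48.2% of the 2801 genes that rose on the whole array. The exceptions were Tap2, H2-M2 and H2-Ke6, whose normalized level was lowest on replicate 1. Without replicate 3 all 26 still rose. The summed normalized signal of the 11 macrophage markers tested was 14141.5 and 16216.8 on replicates 1 and 2 and 9279 on replicate 3. Replicate 3 also had the lowest such sum of the 3 for endothelial, dendritic and B cell markers. The same held for the immunoproteasome, class II endosome, regulator and other costimulation lists. It was not the lowest for T cell, natural killer cell and skeletal muscle markers, nor for the constitutive proteasome and class I folding lists. The part of any of these in the lower values was not tested.

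Other genes of the pathway were described by list, beside the shares of all genes above. Of the 5 immunoproteasome genes 4 rose, with a median change of 1.28: Psmb8, Psmb9 and Psmb10, the catalytic subunits that interferon exchanges into the proteasome, by 1.71, 1.34 and 1.28, and the activator subunit gene Psme2 by 0.39, while Psme1 had a change of 0.05 (adjusted p = 0.776). Psmb9 lies beside Tap1, whose change was 1.54. Of 5 genes of the constitutive proteasome 0 rose and 1, Psme4, fell, by 1.34, with a median of -0.15. The constitutive subunits that those 3 replace, Psmb5, Psmb6 and Psmb7, had changes of -0.02, -0.23 and -0.15, with adjusted p-values of 0.875, 0.103 and 0.279. Of 7 class I folding genes on the array 4 were tested, and all 4 rose, with a median of 0.49. The largest rise was that of Pdia3, the disulfide isomerase of the loading complex, by 1.08, and Calr, Prkcsh and Ganab rose by 0.44, 0.55 and 0.35. Canx and Uggt1 were above background on no array and Hspa5 on 1, so they were not tested.

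Of 10 genes of the class II endosome 5 rose and 1 fell, with a median of 0.60, or 0.31 with Ctss and Marchf1 at their bounds. Lgmn, the asparagine endopeptidase, rose by 2.24 and Ctsb by 0.85, while Ctsd fell by 0.53. The unnormalized Ctsd signals overlapped, at 111.1, 115.8 and 112.1 in wild type and 112.3, 112.8 and 100.7 in the other group. Ifi30, the thiol reductase that opens disulfides of antigens, rose 2.82-fold. Ctss, the protease that cuts the invariant chain, was at least 3.33-fold higher (adjusted p = 8.34e-06), and Marchf1, a ligase that removes class II from the surface, at least 1.20-fold (adjusted p = 0.00163). Among 14 regulators tested 6 rose and 4 fell, with a median of 0.18. The interferon signalling genes went both ways. Stat2, Irf9, Irf1 and Irf8 rose by 1.89, 1.21, 0.80 and 0.78, and Jak1 and Ifngr1 by 0.54 and 0.42. Jak2 and Ifngr2 fell, with changes of -1.46 and -0.61, and Irf2 was not called (0.17, adjusted p = 0.304). Rfxap, a subunit of the RFX complex, fell by 0.88. Nfyb fell too, with a change of -0.38 (adjusted p = 0.0326). Its unnormalized signals overlapped, at 337.3, 349.7 and 349.9 in wild type and 343.4, 311.9 and 335 in the other group. Ifng, encoding interferon-γ, had 2 probes, above background on no array. Of 6 other costimulation and adhesion genes 4 rose, with a median of 1.49: Cd276 by 2.09, Cd40 by 1.52, Icam1 by 1.47, and Cd83 at least 3.73-fold (adjusted p = 4.57e-06).

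**Figure D4:**
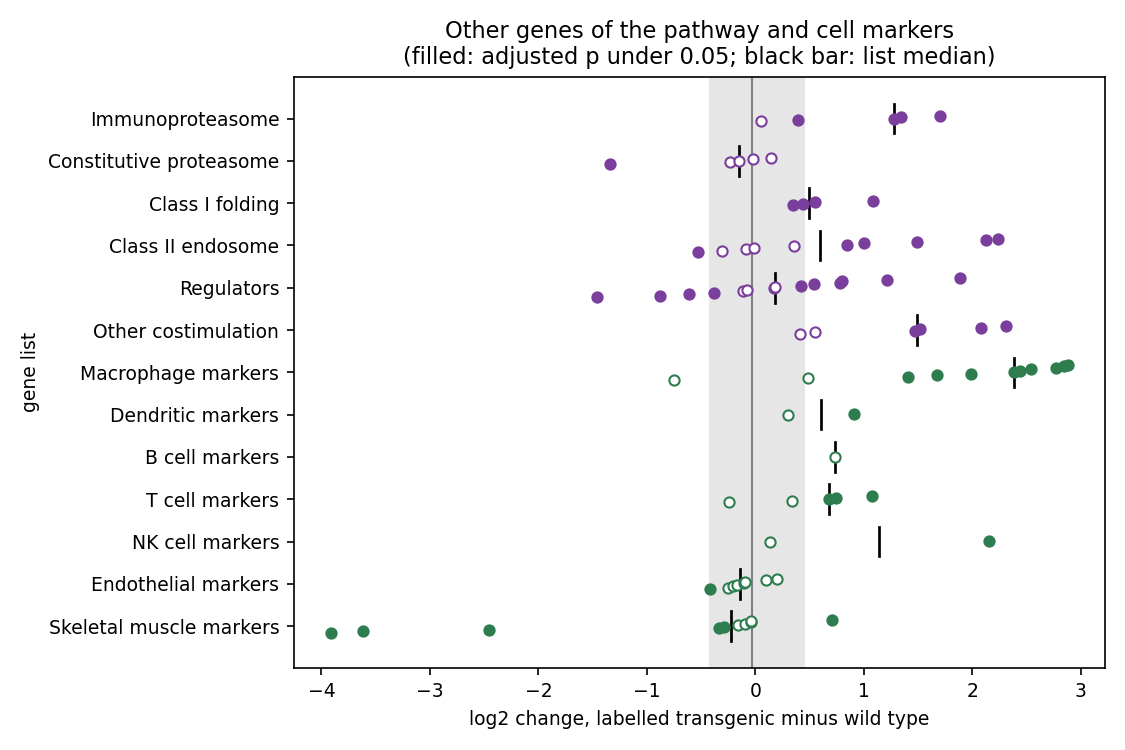
Log2 change (x axis) of each tested gene in the 13 lists (y axis; purple for the pathway, green for cell markers), filled where the adjusted p was under 0.05, with a black bar at each list's median. The grey band and line are the quartiles and median of all genes tested. Macrophage markers run from -0.75 (Cd163) to 2.88 (C1qb), and endothelial markers from -0.42 to 0.20. Genes above background on no wild-type array are drawn at their fitted change, which is above their bound.

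Markers of cells that make MHC molecules moved in part. Beside the counts below, 28.1% of all genes tested rose and 28.2% fell. Of 11 macrophage markers tested 9 rose and 0 fell, with a median change of 2.38, among them C1qb (2.88), Lyz2 (2.85) and Adgre1 (2.55). With Fcgr1, above background on no wild-type array, set at its bound, that median was 1.99. The other 2 tested were not called: Mertk had a change of 0.48 (adjusted p = 0.0588), and Cd163 of -0.75 (adjusted p = 0.0526), with its normalized levels lower in all 3 arrays labelled transgenic. The unnormalized Cd163 signals overlapped, at 233.9, 222.6 and 179.6 in wild type and 132.9, 223.4 and 185.1 in the other group. For the 11 together the summed normalized signal was 2226 to 2473 in wild type and 9279 to 16216.8 in the arrays labelled transgenic. Itgam was above background on no array. Of the dendritic markers 2 of 10 were tested, with 1 rise (Batf3, at least 1.35-fold higher), and Itgax, Flt3, Xcr1, Clec9a and Cd209a were above background on no array. Of the B cell markers only Cd79b was tested, with a change of 0.74 (adjusted p = 0.0584), and Ms4a1, Pax5, Blk and Cr2 were at background. Among 5 T cell markers tested 3 rose, Cd3d, Cd3g and Cd2, at least 1.26-, 1.17- and 1.01-fold higher. These 3 were above background on no wild-type array and passed the filter only through the arrays labelled transgenic. Their count was therefore partly fixed by the filter, and the bound for Cd2 is close to no difference. Fcgr1, Batf3 and Nkg7 entered the test in the same way. Cd4, Cd8a and Cd5 were at background throughout. Nkg7 of natural killer and cytotoxic T cells was at least 3.39-fold higher, and Prf1 had a change of 0.14 (adjusted p = 0.34). The summed signals in wild type and in the other group were 96.1 to 122.7 and 132.6 to 183.9 for the dendritic list, 25.3 to 38.9 and 34.2 to 79.8 for B cells, 1216 to 1448 and 1153 to 1248 for T cells (most of it from Cd8b1, with a change of -0.25 and adjusted p = 0.109), and 240.1 to 275.0 and 338.1 to 452.8 for natural killer cells. Each gene's signal in these sums includes the offset of 16 added before log2, which weighs most in the dim lists. The part of any of these cells in the MHC values was not tested. Of 8 endothelial markers, from cells that carry class I, 0 rose and 1 fell (Kdr, by 0.42), with a median of -0.14. The unnormalized Kdr signals overlapped, at 93.4, 94.6 and 94.7 in wild type and 83.6, 100 and 89.5 in the other group.

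Position was a further feature that the symbols do not fix for every gene. Of the 51 genes 42 lie on chromosome 17 in RefSeq, where the H2 complex is, and the others are on 7 other chromosomes. Between H2-K1 and H2-M2 on that chromosome 22 members were tested, of which 18 rose and 1 fell, with a median change of 1.63. The 71 other genes tested in that interval had 25 rises and 12 falls, with a median of 0.07, beside 28.1% and 28.2% of all genes tested. Off chromosome 17, B2m, Cd74, Ciita, Nlrc5, Cd86 and Cd1d1 rose and Tapbpl was not called.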

How the data were processed

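Muscle RNA from 6 samples, 3 per genotype label, was converted to biotinylated cRNA by T7 amplification, per the labels' protocols, and hybridized to 1 array each. GenomeStudio is the software that the submitters' processing notes give. The authors deposited an unnormalized intensity per probe and array, with a detection p-value for each. In their second deposited table the intensity values are already background-subtracted, by a method the sources used here do not state; it served as an alternative.

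Background correction, quantile normalization and log2 were done with neqc in limma 3.58.1 (R 4.3.3, offset 16), which inferred the negative controls from the detection p-values. The summed signals of a list keep this offset for each gene. A probe was kept (17166 were) if its detection p was under 0.05 on 3 or more arrays. Symbols came from the platform annotation (34885 probes with 1 symbol, 18 with several, 10378 with none), and matching 34807 by Entrez ID to RefSeq changed 0. The kept probe with the highest mean signal stood for a gene. Genotypes were compared with lmFit and eBayes, two-sided, with Benjamini-Hochberg adjustment over 9978 genes and a threshold of 0.05, and again over all kept probes. All members are named. From the other lists, counts and the called genes with larger changes are given. Members, lists and rules were chosen with earlier results of these data known, and the motif letters with the promoters in view. Deviations of same-numbered arrays from their group means correlated at -0.05, 0.03 and -0.0022, and those of differently numbered arrays at -0.047 to 0.052. The main fit therefore had no replicate term, though this check cannot exclude that same-numbered arrays shared a batch. The test was checked on data with known answers.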

Additional observations from a re-analysis of the deposited data

How the results depend on the processing

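Of the 26 members that rose, 25 kept direction and call in each of the 17 alternatives in which they were tested. The exception was Tapbp with the mean of its probes. The alternatives changed background correction, offset, scaling, filter, probe summary, variance model, array weights, the arrays included, and the source (the authors' value table floored at 1). Members called numbered 22 to 27, with 21 to 26 higher and at most 1 lower, and the 22 came from 23 members when only probes above background on all arrays were used. With the replicate block 26 members were called, all higher, and 5337 of all genes. No fit with the BeadChip as a term was made, since the column headers name no chip. Leaving out 1 array at a time gave 4958 to 5339 genes called, 26 to 27 members, and a Ppargc1b change of -1.50 to -1.13. Scaling to the median of all probes moved the median change of all genes from -0.03 to 0.19. It gave 3766 genes higher and 1606 lower (70.1% of calls higher), against 2801 and 2812 (49.9%), and 26 members higher. Small changes turned sign for 3 members, and the cause was not tested. H2-Q1 went to 0.044 under that scaling and ran from -0.35 to -0.23 without 1 array. H2-Eb2 went to -0.071 with arrays scaled to probes detected on all arrays and ran from -0.023 to 0.21 without 1 array. Tapbpl ran from -0.14 to 0.22 without 1 array. Changes of genes near background depended on the scale: that of Ciita was 0.89 with no background correction and 4.59 in the authors' table, and that of H2-M2 was 0.47 with an offset of 50 and 4.71 in the authors' table. Those of H2-Q8, Nlrc5 and Cd86 were 1.38, 1.10 and 1.01 with no background correction and 2.86, 2.85 and 2.15 in the authors' table.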
